A study of Mus musculus with 12 samples.

Results

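The genes described are 10 members of the insulin-like growth factor (IGF) axis, out of 46731 genes in the deposited table: the IGF-binding protein genes *Igfbp2*, *Igfbp3*, *Igfbp4*, *Igfbp5*, *Igfbp6* and *Igfbp7*, the ligand genes *Igf1* and *Igf2*, and the receptor genes *Igf1r* and *Igf2r*. They were taken from the table by symbol. *Igfbp5* was chosen by its very large rise after *Ddx5* knockdown, so its knockdown values are given as a description with no test, and the other 9 genes were added as its family and pathway. RNA was sequenced from ATDC5 cells, a mouse chondrogenic line whose label gives teratocarcinoma as its source. The control cells (shRNA-NC) carried a lentiviral control vector, and the shRNA-*Ddx5* cells the same vector with 1 hairpin against the RNA helicase gene *Ddx5*. The study's methods give puromycin selection for the shRNA-*Ddx5* cells and do not state it for the control cells. Each line was compared after 6 h in medium alone and after 6 h with both cytokines, IL-1β at 5 ng/ml and TNF-α at 25 ng/ml, which gave 4 groups of 3 libraries. An effect of the knockdown and an effect of that single hairpin cannot be told apart in this design.

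IGF-I and IGF-II are secreted growth factors that act mainly through the receptor tyrosine kinase encoded by *Igf1r*, which signals through insulin receptor substrates to PI3K and Akt. Most IGF outside cells is held by IGF-binding proteins, which compete with the receptor for the ligand, protect it from clearance, and release it when proteases cut them. In cartilage, IGF-I is known as an anabolic factor that promotes proteoglycan synthesis, and binding proteins in the matrix set how much of it reaches chondrocytes.

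Depth ran from 14119199 to 19276520 fragments on genes per library. A gene entered the tests when its FPKM, that is, fragments relative to gene length and library denominator, reached 1 in 3 or more libraries, which left 12368 genes. Of the 10 genes, 7 passed this filter, and *Igfbp2*, *Igf1* and *Igf2* did not. *Igfbp4* and *Igfbp7* passed only through the groups in which they were high, so their adjusted p is also given from a fit with no filter, over 27209 genes. The FPKM of *Ddx5* was 294 to 337 in the 6 shRNA-NC and 90.7 to 118 in the 6 shRNA-*Ddx5* libraries (log2 fold change -1.63 in each medium, adjusted p = 9.5e-07 and 9.1e-07 by limma). The ATDC5 label was checked against 7 chondrogenic genes. Of these, 3 passed the filter, and *Acan*, *Col9a1* and *Matn1* stood at or under 3 fragments in every shRNA-NC library. The labels name the 3 libraries of a group as replicates and the study's methods describe independent experiments.

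The binding protein genes made up a very different mixture in the 4 groups. The FPKM of the 6 binding protein genes summed to 164 ± 6.78 in shRNA-NC cells and to 855 ± 21.6 in shRNA-*Ddx5* cells without cytokines (SD, n = 3 each). With cytokines the sums were 72.6 ± 11.8 and 429 ± 23.8 (SD, n = 3 each). In shRNA-NC cells in medium, *Igfbp3* held 64.7% of the sum, *Igfbp6* 23.6% and *Igfbp5* 11.2%. In shRNA-*Ddx5* cells in medium, *Igfbp5* held 56.1% and *Igfbp3* 39.3%, so that *Igfbp5* was the most abundant binding protein transcript per length. With cytokines, *Igfbp3* led again in shRNA-*Ddx5* cells with 66.7%, ahead of *Igfbp5* with 22.9%. In shRNA-NC cells with cytokines, *Igfbp3* held 50.0% and *Igfbp6* 42.0%, and the library values of these neighbours in the order overlapped (FPKM 32.8 to 41.3 and 23.0 to 35.6). *Igfbp5* held 4.25% there and overlapped *Igfbp4*. These sums include the gene that was chosen for its rise and are a description.

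**Figure D1:**
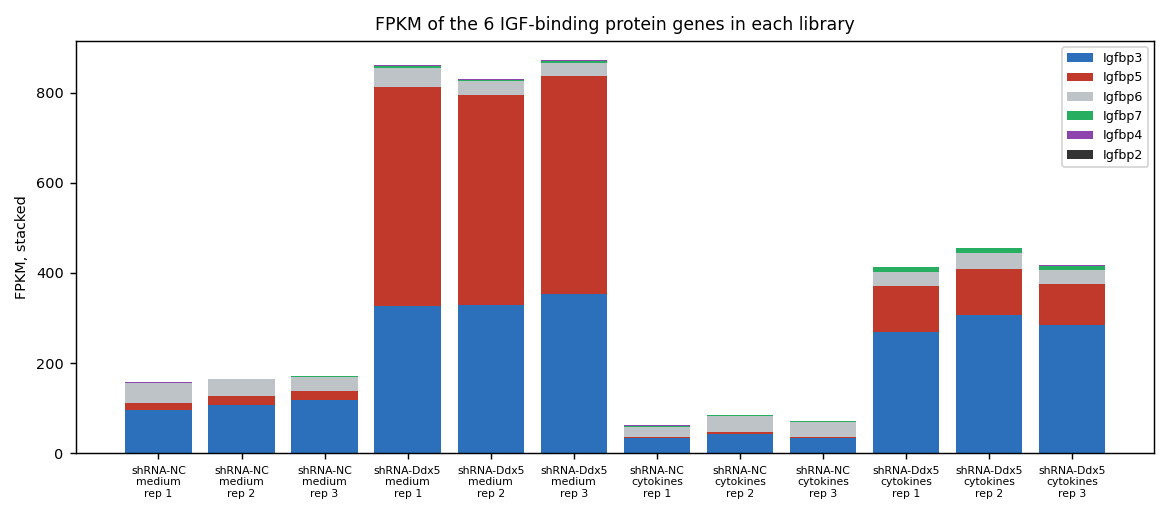
Stacked FPKM (y axis) of the 6 IGF-binding protein genes in each of the 12 libraries (x axis, 1 bar per library). *Igfbp3* and *Igfbp5* made up most of each shRNA-*Ddx5* bar. The summed FPKM averaged 855 in medium and 429 with cytokines in shRNA-*Ddx5* cells, against 164 and 72.6 in shRNA-NC cells.

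*Igfbp5* encodes a strongly conserved binding protein that attaches to extracellular matrix and is prominent in skeletal tissue. It is gene 16011, at chr1:72897224-72914024 on the minus strand (GRCm39). The 2 promoter stretches below were printed because *Igfbp5* and *Igfbp7* were higher in shRNA-*Ddx5* cells in both media and moved in opposite directions with cytokines. Both come from RefSeq promoter windows (GRCm38.p6) that matched the GRCm39 chromosome exactly and once. Of the 250 bases before each start, those in an annotated exon of the gene were left out, 19 for *Igfbp5* and 39 for *Igfbp7*. The *Igfbp5* stretch is chr1:72914044-72914274 and the *Igfbp7* stretch chr5:77555932-77556142, both on the minus strand. The capitals mark, in *Igfbp5*, 11 bases that hold overlapping matches to the NF-kB consensus on both strands and, in *Igfbp7*, 4 runs of at least 3 G with 1 to 7 bases between runs, the pattern that can fold into a G-quadruplex.
Igfbp5: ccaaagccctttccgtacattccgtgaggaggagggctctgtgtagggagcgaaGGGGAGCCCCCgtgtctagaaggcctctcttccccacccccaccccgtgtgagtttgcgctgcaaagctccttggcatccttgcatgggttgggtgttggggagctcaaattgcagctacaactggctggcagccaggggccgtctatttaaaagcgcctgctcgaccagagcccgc
Igfbp7: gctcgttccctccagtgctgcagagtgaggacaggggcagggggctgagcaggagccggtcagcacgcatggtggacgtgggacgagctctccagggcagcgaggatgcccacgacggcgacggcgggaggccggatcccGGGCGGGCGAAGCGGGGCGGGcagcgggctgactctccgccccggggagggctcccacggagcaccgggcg

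The NF-kB consensus, the site of a factor that IL-1β and TNF-α activate, was found on either strand in 7.25% of 32851 promoter windows of 250 bases. The capitals of *Igfbp5* lay from 196 to 186 bases before the start. The *Igfbp7* window held no match to the consensus. The pattern of 4 G runs was found on either strand in 16.7% of windows, and in the *Igfbp7* window it lay on the coding strand. It also occurred in windows of *Igfbp2*, *Igf1r*, *Igf2* and *Igfbp4*, so it was not particular to *Igfbp7*. The *Igfbp5* window held no such pattern on either strand. The *Igfbp7* window was 74% G and C, the *Igfbp5* window 58.8%, and the median window 52.4%. These matches describe letters in the windows and say nothing about binding or folding in these cells.

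In medium, the FPKM of *Igfbp5* was 14.1, 19.7 and 21.5 in the 3 shRNA-NC libraries and 486, 467 and 484 in the 3 shRNA-*Ddx5* libraries. With cytokines it was 1.53, 5.15 and 3.00 in shRNA-NC and 102, 102 and 91.1 in shRNA-*Ddx5* libraries. The groups were far apart in both media, and the lowest shRNA-*Ddx5* library with cytokines was above the highest shRNA-NC library in medium. The mean FPKM was 26.0 times that of the control in medium and 30.4 times with cytokines. The log2 fold change was 4.65 in medium, the highest of the 12368 genes, and 4.64 with cytokines, the rank 2 value. These knockdown values chose the gene. The log2 fold changes of the 2 media differed by -0.003, also a description.

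The cytokine effect on *Igfbp5* was not the value that chose it, and it was tested. Its comparisons use the same libraries as the knockdown comparisons, so these tests are not independent of the choice. *Igfbp5* fell with cytokines in both lines, and the medium and cytokine libraries did not overlap in either. In shRNA-NC cells the mean FPKM went from 18.4 to 3.23, a log2 fold change of -2.27 (SE 0.25, adjusted p = 5.2e-05, limma with Benjamini-Hochberg adjustment over 12368 genes). In shRNA-*Ddx5* cells it went from 479 to 98.2, a log2 fold change of -2.28 (SE 0.25, adjusted p = 4.2e-05). In both lines the log2 fold change of *Igfbp5* was rank 5 from the lowest of the 12368 genes on the log2(FPKM + 1) scale. That scale understates the change of low genes, so the rank holds for this scale only. Replicate 2 of shRNA-NC with cytokines held the highest *Igfbp5* level of its group. Without that library, the log2 fold change in shRNA-NC cells was -2.59, and without replicate 1, the lowest of the group, it was -1.95.

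The levels of marker genes of other cell types also differed between the lines. The summed FPKM of 5 osteoblast markers, of which 3 passed the filter, was 12.9 to 15.2 in shRNA-NC and 57.7 to 63.3 in shRNA-*Ddx5* libraries in medium, and 4.90 to 7.93 and 22.8 to 26.2 with cytokines, with *Bglap* at or under 3 fragments in each group but shRNA-*Ddx5* in medium. For 4 smooth muscle or myofibroblast markers, of which 1 passed the filter, it was 0.554 to 0.668 and 11.7 to 12 in medium, and 0.544 to 2.64 and 17.4 to 19.6 with cytokines, with *Tagln* at or under 3 fragments in every library. Most of this sum was *Acta2* alone (mean FPKM 0.546 and 11.7 in medium, 1.19 and 18.5 with cytokines). *Cnn1* and *Myh11* averaged at most 0.118 in any group. With cytokines *Myh11* was lower in shRNA-*Ddx5* cells (0.0621 and 0.0410) and *Cnn1* higher (0.0420 and 0.0586). For 7 chondrogenic markers the summed FPKM was 37.1 to 42.6 and 24.0 to 28.0 in medium, and 12.3 to 17.5 and 7.19 to 8.49 with cytokines. These markers did not all move together. The mean FPKM of *Col2a1* was 12.4 in shRNA-NC and 0.899 in shRNA-*Ddx5* cells in medium. *Col9a1* went from 0 to 0.207 there, and *Prg4* from 0.226 to 1.30 with cytokines. For 4 adipocyte markers, of which 1 passed the filter, the summed FPKM was 0.0179 to 0.0504 and 1.25 to 1.61 in medium, and 0.0883 to 0.819 and 1.45 to 2.18 with cytokines, and *Plin1* and *Adipoq* stood at or under 3 fragments throughout. In shRNA-*Ddx5* cells most of it was *Fabp4* (mean FPKM 1.19 in medium and 1.65 with cytokines), at 30 or fewer fragments per library. *Fabp4* passed the filter only through the shRNA-*Ddx5* groups, where it was high. Of 4 leukocyte markers *Ptprc* and *Adgre1* were at or under 3 fragments in all libraries, and the summed FPKM lay between 1.20 and 2.15 over the 4 groups. The summed FPKM of 3 endothelial and of 4 epithelial markers stayed at or below 0.119 and 0.116, and the skeletal muscle markers *Myod1* and *Myog* had no fragment. The part of these shifts in the binding protein results was not tested. In such bulk samples, more cells of a type and more RNA per cell cannot be told apart.

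**Figure D2:**
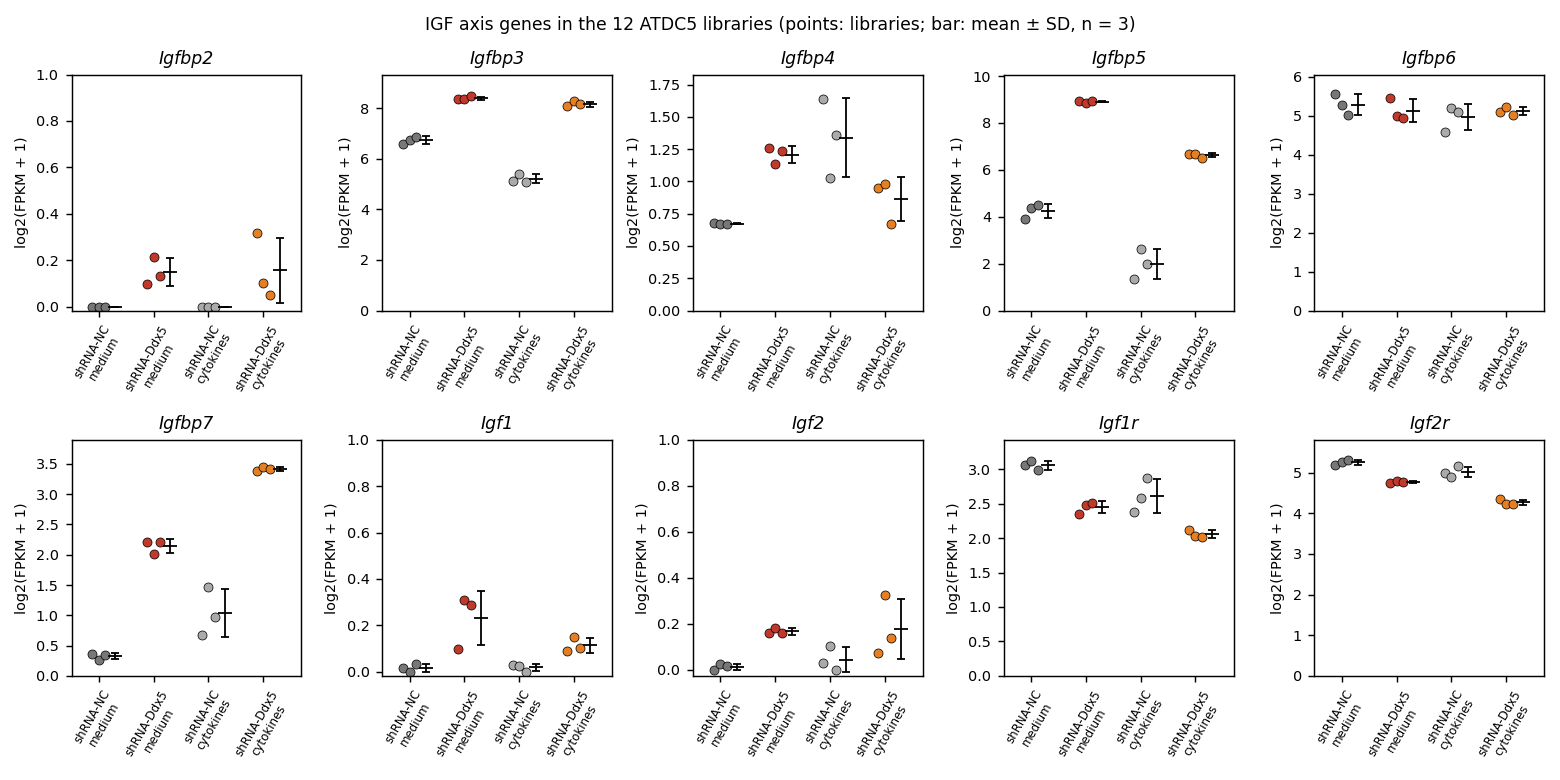
Level of each of the 10 genes as log2(FPKM + 1) (y axis) in the 4 groups (x axis). Points are single libraries and bars the mean ± SD (n = 3). *Igfbp5* was high in shRNA-*Ddx5* cells and fell with cytokines in both lines. *Igfbp3* fell with cytokines by 1.54 on the log2 scale in shRNA-NC cells, and its difference of -0.23 in shRNA-*Ddx5* cells missed the threshold.

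*Igfbp3* encodes the main IGF carrier of serum (chr11:7156086-7165498, minus strand). The shRNA-NC and shRNA-*Ddx5* levels were far apart. FPKM values in medium were 95.9, 107 and 117 in shRNA-NC and 327, 329 and 353 in shRNA-*Ddx5* libraries. Cytokine-treated libraries held 34.1, 41.3 and 32.8 in shRNA-NC and 268, 307 and 284 in shRNA-*Ddx5* libraries. No group overlapped another. *Igfbp3* rose after knockdown by 1.65 in medium (SE 0.11, adjusted p = 1.0e-06) and by 2.96 with cytokines (SE 0.11, adjusted p = 3.5e-08) on the log2 scale. Cytokines lowered it in shRNA-NC cells (log2 fold change -1.54, SE 0.11, adjusted p = 1.1e-06). In shRNA-*Ddx5* cells the cytokine difference was -0.23 with a 95% interval from -0.46 to -0.0009, and it missed the threshold (adjusted p = 0.129), except after quantile normalization, where it was -0.41 (adjusted p = 0.0286). The knockdown effect was larger with cytokines than in medium by 1.31 on the log2 scale (SE 0.15, adjusted p = 4.9e-04, interaction in limma). With cytokines, the mean FPKM of *Igfbp3* stood at 85.1% of its medium level in shRNA-*Ddx5* cells and at 33.9% in shRNA-NC cells.

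*Igfbp7* encodes a secreted protein of the same superfamily with a low affinity for IGFs. The gene is at chr5:77497087-77555892 on the minus strand. Its FPKM was 0.280, 0.203 and 0.274 in shRNA-NC and 3.61, 3.01 and 3.61 in shRNA-*Ddx5* libraries in medium. With cytokines it was 0.592, 1.76 and 0.965 in shRNA-NC and 9.42, 9.90 and 9.74 in shRNA-*Ddx5* libraries. All 4 groups were apart, with shRNA-NC in medium lowest, at 5 to 7 fragments per library, and shRNA-*Ddx5* with cytokines highest. *Igfbp7* rose after knockdown by 1.81 in medium (SE 0.16, adjusted p = 8.2e-06) and by 2.38 with cytokines (SE 0.16, adjusted p = 1.3e-06) on the log2(FPKM + 1) scale. With no filter on level, these adjusted p-values were 6.3e-05 and 1.4e-05. Cytokines raised it by 0.71 in shRNA-NC cells (adjusted p = 0.0055) and by 1.28 in shRNA-*Ddx5* cells (adjusted p = 1.1e-04), the opposite direction to *Igfbp5*, and with no filter these were 0.0186 and 6.5e-04. The difference between the knockdown effects was 0.57 (95% interval 0.07 to 1.06) and missed the threshold (adjusted p = 0.156). Without replicate 2 of shRNA-NC with cytokines, which held the highest *Igfbp7* of its group, that difference was 0.78 and passed (adjusted p = 0.0104), while a pseudocount of 0.1 turned it to -0.18. With that pseudocount the knockdown effect was 3.32 in medium and the cytokine effect in shRNA-NC cells 1.66, since adding 1 FPKM compresses so low a gene. *Igfbp7* shares 89 bases with *Polr2b* on the opposite strand, and without a strand-marking kit reads in those bases cannot be told apart. *Polr2b* reached 4695 fragments and 68.3 FPKM, against 5 to 7 fragments of *Igfbp7* in shRNA-NC libraries in medium. The part of such reads in the *Igfbp7* values was not tested.

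*Igfbp4* encodes a binding protein known mainly as an inhibitor of IGF action and as the substrate of the protease PAPP-A. The gene is at chr11:98930820-98943481 on the plus strand. In medium its FPKM was 0.599, 0.592 and 0.595 in shRNA-NC and 1.39, 1.20 and 1.35 in shRNA-*Ddx5* libraries. Under cytokines the values were 2.11, 1.04 and 1.56 in shRNA-NC and 0.933, 0.970 and 0.588 in shRNA-*Ddx5* libraries. The order of the lines was thus reversed with cytokines, and neither pair overlapped. *Igfbp4* rose after knockdown by 0.53 in medium (SE 0.14, adjusted p = 0.0098) and fell by 0.47 with cytokines (SE 0.14, adjusted p = 0.018). It entered the tests through shRNA-*Ddx5* in medium and shRNA-NC with cytokines, the groups where it was high, and with no filter these adjusted p-values were 0.0245 and 0.0430. The second call was lost in a fit of the 6 cytokine libraries alone (adjusted p = 0.054), without replicate 1 of shRNA-NC with cytokines (-0.33, adjusted p = 0.067) and without replicate 3 of shRNA-*Ddx5* with cytokines (-0.37, adjusted p = 0.077). The difference between the knockdown effects was -1.01 (SE 0.20, adjusted p = 0.011), with an adjusted p of 0.0273 with no filter, and it passed the threshold in each fit that left out 1 library. Cytokines raised *Igfbp4* by 0.67 in shRNA-NC cells (adjusted p = 0.0044). In shRNA-*Ddx5* cells the cytokine difference was -0.34 (95% interval -0.66 to -0.03, adjusted p = 0.0995), with an adjusted p of 0.046 and 0.045 when replicate 1 or replicate 2 of shRNA-NC with cytokines was left out. With a pseudocount of 0.1 the interaction was -1.84, the knockdown effects 1.02 and -0.82 and the cytokine effects 1.21 and -0.63.

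*Igfbp6* encodes a binding protein that prefers IGF-II. The gene is at chr15:102052621-102057947 on the plus strand. Its level in medium was 46.2, 37.6 and 31.6 FPKM in shRNA-NC and 43.1, 30.6 and 29.7 in shRNA-*Ddx5* libraries. With cytokines the level was 23.0, 35.6 and 33.4 in shRNA-NC and 32.9, 36.7 and 31.6 in shRNA-*Ddx5* libraries. In each comparison the groups overlapped and no difference passed the threshold. The log2 difference after knockdown was -0.16 in medium (95% interval -0.57 to 0.26, adjusted p = 0.524) and 0.15 with cytokines (-0.26 to 0.57, adjusted p = 0.536). The cytokine difference was -0.33 in shRNA-NC cells (-0.74 to 0.09, adjusted p = 0.208) and -0.01 in shRNA-*Ddx5* cells (-0.43 to 0.40, adjusted p = 0.970). These intervals leave room for changes of up to 0.74 on the log2 scale.

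Both receptor genes were lower after knockdown in both media. *Igf1r* encodes the signalling receptor of IGF-I and IGF-II (chr7:67601486-67883416, plus strand). FPKM values in medium were 7.31, 7.68 and 6.97 in shRNA-NC and 4.10, 4.60 and 4.70 in shRNA-*Ddx5* libraries. With cytokines they were 4.21, 4.99 and 6.31 in shRNA-NC and 3.35, 3.08 and 3.04 in shRNA-*Ddx5* libraries. The lines did not overlap in either medium, and all 6 cytokine libraries were below those of the same line in medium. *Igf1r* fell after knockdown by 0.61 in medium (SE 0.11, adjusted p = 0.0012) and by 0.56 with cytokines (SE 0.11, adjusted p = 0.0021). With cytokines it fell by 0.44 in shRNA-NC cells (adjusted p = 0.0106) and by 0.39 in shRNA-*Ddx5* cells (adjusted p = 0.023). The first of these cytokine calls was lost in a fit of the 6 shRNA-NC libraries alone (adjusted p = 0.053). The second was lost when replicate 2 or 3 of shRNA-*Ddx5* in medium or replicate 2 or 3 of shRNA-*Ddx5* with cytokines was left out (log2 fold changes -0.38, -0.36, -0.38 and -0.37, adjusted p 0.065 to 0.085). The difference between the knockdown effects was 0.05 (95% interval -0.30 to 0.40).

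*Igf2r* encodes the cation-independent mannose 6-phosphate receptor, which clears IGF-II and sorts lysosomal enzymes. The gene is at chr17:12901293-12988593 on the minus strand. FPKM values in medium were 35.3, 37.7 and 38.8 in shRNA-NC and 25.9, 26.8 and 26.4 in shRNA-*Ddx5* libraries. With cytokines they were 31.0, 28.8 and 34.8 in shRNA-NC and 19.4, 17.8 and 17.7 in shRNA-*Ddx5* libraries. Within each medium the lines were apart, and shRNA-*Ddx5* with cytokines was the lowest group. *Igf2r* fell after knockdown by 0.48 in medium (SE 0.08, adjusted p = 5.6e-04) and by 0.75 with cytokines (SE 0.08, adjusted p = 2.6e-05). With cytokines it fell by 0.51 in shRNA-*Ddx5* cells (SE 0.08, adjusted p = 6.4e-04). In shRNA-NC cells it fell by 0.24 (SE 0.08, adjusted p = 0.0399), and this call was lost in a fit of the 6 shRNA-NC libraries alone (adjusted p = 0.123), while quantile normalization gave -0.42. It was also lost in 8 of the 12 fits that left out 1 library: replicates 2 and 3 of shRNA-NC in medium, replicate 3 of shRNA-*Ddx5* in medium, replicates 1 and 2 of shRNA-NC with cytokines and each replicate of shRNA-*Ddx5* with cytokines. Over the 12 fits the log2 fold change ran from -0.31 to -0.18 and the adjusted p from 0.0169 to 0.137. The difference between the knockdown effects was -0.27 (95% interval -0.52 to -0.02, adjusted p = 0.176). The antisense transcript *Airn*, which overlaps *Igf2r*, had at most 1 fragment in a library.

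**Figure D3:**
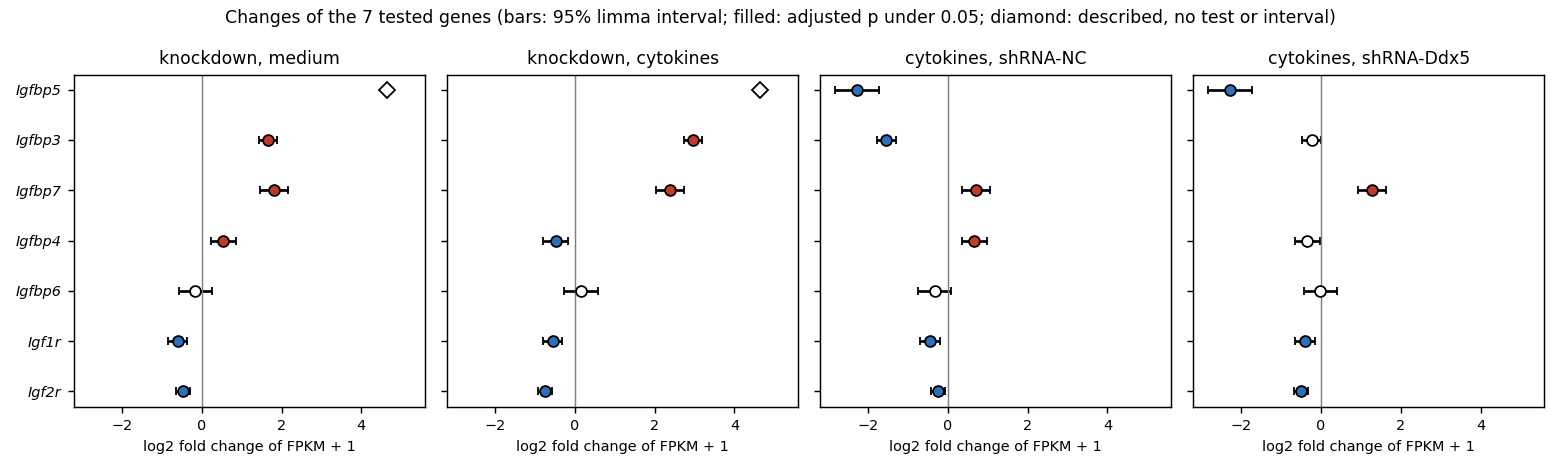
Log2 fold change of FPKM + 1 (x axis) of the 7 genes that passed the filter (y axis) in 4 comparisons, with 95% limma intervals for the tested values. Filled points passed an adjusted p of 0.05 (red higher, blue lower), open circles did not, and diamonds are the *Igfbp5* knockdown values that chose the gene, with no test or interval. *Igfbp3* and *Igfbp7* were above 0 and *Igf1r* and *Igf2r* below 0 in both knockdown panels.

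*Igf1*, *Igf2* and *Igfbp2* were close to the detection limit, and a count of 3 fragments was taken as the floor. *Igf1*, the gene of the ligand IGF-I, had 2, 0 and 3 fragments in shRNA-NC and 10, 37 and 34 in shRNA-*Ddx5* libraries in medium, and 3, 3 and 0 and 9, 15 and 10 with cytokines. *Igf2*, the gene of IGF-II, had 0, 2 and 1 and then 11, 14 and 12 fragments in medium, and 2, 8 and 0 and then 5, 23 and 9 with cytokines. *Igfbp2*, whose product is a major binding protein of fetal tissue, had no fragment in any shRNA-NC library, 2, 5 and 3 in shRNA-*Ddx5* libraries in medium and 7, 2 and 1 with cytokines. No shRNA-*Ddx5* library was below the highest shRNA-NC library for *Igf1* in either medium, for *Igf2* in medium, or for *Igfbp2* in either medium, whereas the *Igf2* groups overlapped with cytokines. When the filter was dropped (27209 genes), *Igf1* was higher after knockdown in medium by 0.21 on the log2(FPKM + 1) scale (adjusted p = 0.0078). No other comparison of the 3 genes then passed the threshold, and the lowest adjusted p among them was 0.0697. Differences at this depth rest on a few fragments, so the values of the ligand genes are given as counts.

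**Figure D4:**
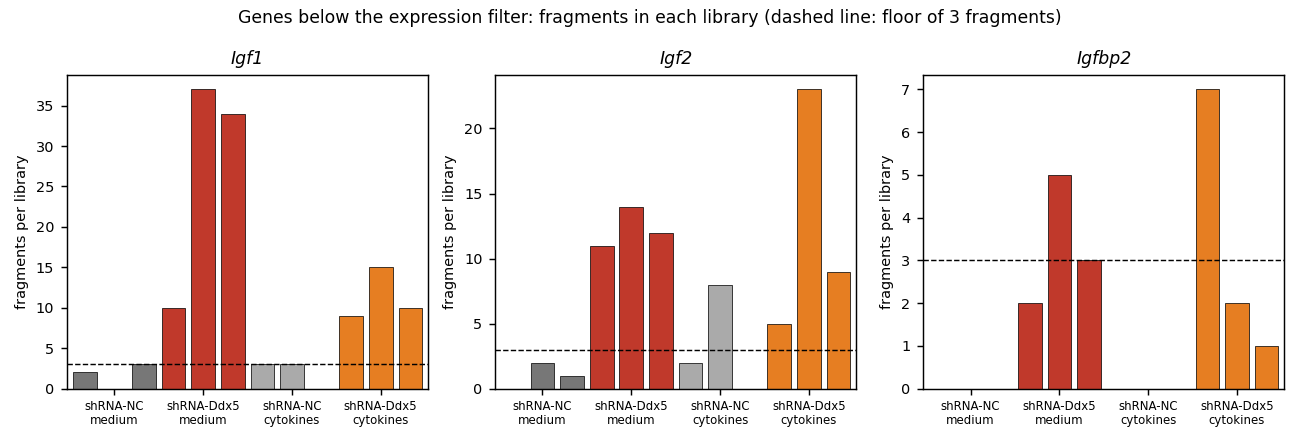
Fragments per library (y axis) of *Igf1*, *Igf2* and *Igfbp2* in the 4 groups (x axis, 3 bars per group), with a dashed line at the floor of 3 fragments. The highest bar, for *Igf1* in shRNA-*Ddx5* cells in medium, stands at 37 fragments, and *Igfbp2* has no bar in shRNA-NC cells.

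*Igfbp5* and *Igfbp2* are neighbours on chromosome 1, with 5590 bases between their ends and opposite strands, and *Igfbp3* has *Igfbp1* as its neighbour on chromosome 11 at 3539 bases. The level of *Igfbp2* never passed 7 fragments in a library while *Igfbp5* reached 51119, and *Igfbp1* had no fragment in any library. Among the tested genes, those whose log2 values were most like *Igfbp5* over the 12 libraries were *Adam23* (Pearson's r 0.996) and *Ncam1* (0.992). For *Igfbp3* they were *Dhcr7* (0.987), *Pcyt1a* (0.986) and *Ddx17* (0.985), the last being the close paralogue of *Ddx5*. These 12 libraries share 4 groups, and the correlations are a description.

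Over the whole table, 25.3% of tested genes were called higher and 21.7% lower after knockdown in medium, and 23.5% and 22.1% with cytokines. Beside *Igfbp5*, 6 of the genes were tested. In medium 3 of these were called higher (*Igfbp3*, *Igfbp4*, *Igfbp7*) and 2 lower (*Igf1r*, *Igf2r*), and with cytokines 2 were higher and 3 lower. Since *Igfbp4* and *Igfbp7* passed the filter only through groups where they were high, these counts describe the genes tested and not the family. With cytokines, 18.6% of tested genes were called higher and 15.2% lower in shRNA-NC cells, and 13.5% in each direction in shRNA-*Ddx5* cells. Of the 7 genes, 2 rose and 4 fell in shRNA-NC cells, and 1 rose and 3 fell in shRNA-*Ddx5* cells. The interaction called 3.46% of genes higher and 4.75% lower, and 1 of the 6 genes in each direction. The share of calls that were higher was 53.8% for the knockdown in medium against 42.5% when libraries were scaled to summed fragments. It was 55.1% for cytokines in shRNA-NC cells against 43.4% after quantile normalization and 42.2% with summed fragments, and 50.0% in shRNA-*Ddx5* cells against 39.0% after quantile normalization. The comparisons of a line or a medium share libraries, so their values are given side by side only.

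Other genes of the pathway came from 7 lists with 46 genes, of which 34 were tested. After knockdown 8 rose and 14 fell in medium, and 8 rose and 14 fell with cytokines (23.5% and 41.2% each time). Of all tested genes 25.3% rose and 21.7% fell in medium, and 23.5% and 22.1% with cytokines. The median log2 fold change was -0.19 in medium, against 0.03 over all tested genes, and -0.15 with cytokines, against 0.01. With cytokines 7 rose and 5 fell in shRNA-NC cells (20.6% and 14.7%, against 18.6% and 15.2% of all tested genes), with a median of -0.14 against 0.02. In shRNA-*Ddx5* cells 7 rose and 7 fell (20.6% each, against 13.5% each of all tested genes), with a median of 0.04 against 0.0001.

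Of 7 listed proteases that cut binding proteins and their inhibitors, 4 were tested. After knockdown 2 of them, *Pappa2* and *Htra1*, rose in both media (25.3% of all tested genes rose in medium and 23.5% with cytokines), and *Stc2* fell with cytokines by 0.54 (adjusted p = 0.0035; 22.1% of all tested genes fell). *Pappa*, which encodes PAPP-A, passed in no comparison, with log2 differences from -0.19 to 0.32 in the 4 comparisons (adjusted p of 0.126 or higher). *Pappa2*, whose product cleaves IGFBP-3 and IGFBP-5, averaged 1.51 ± 0.273 FPKM in shRNA-NC and 4.92 ± 0.895 FPKM in shRNA-*Ddx5* cells in medium (SD, n = 3 each, log2 fold change 1.23, adjusted p = 3.0e-05). Like *Igfbp5*, *Pappa2* fell with cytokines in both lines (adjusted p = 9.0e-05 in shRNA-NC and 1.8e-06 in shRNA-*Ddx5* cells). It fell to 0.173 ± 0.140 and 0.768 ± 0.0195 FPKM (SD, n = 3 each), below the filter. *Pappa2* passed the filter only through the groups in medium, where it was high. With no filter the adjusted p-values of the fall were 5.4e-04 and 1.9e-05. The size of this fall depended on the pseudocount. The log2 fold changes were -1.10 in shRNA-NC and -1.73 in shRNA-*Ddx5* cells with 1 FPKM added, -2.67 and -2.52 with 0.1 added, and -3.35 and -2.66 with voom on fragments. *Htra1*, which encodes a secreted serine protease, went from 5.11 ± 0.606 to 13.6 ± 1.99 (SD, n = 3 each) in medium (log2 fold change 1.25, adjusted p = 9.7e-06). *Stc2*, whose product inhibits PAPP-A, rose with cytokines by 1.42 in shRNA-NC (adjusted p = 6.5e-06) and by 0.92 in shRNA-*Ddx5* cells (adjusted p = 1.5e-04). *Htra3*, a related protease gene below the filter, had 6, 6 and 3 fragments in shRNA-NC and 62, 79 and 49 in shRNA-*Ddx5* libraries in medium, none in shRNA-NC and 7, 6 and 3 in shRNA-*Ddx5* libraries with cytokines.

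Of 8 receptor adaptors 7 were tested. After knockdown 2 rose and 4 fell in medium, where 25.3% of all tested genes rose and 21.7% fell, and 1 rose and 4 fell with cytokines, where the shares were 23.5% and 22.1%. *Grb14*, an adaptor known to inhibit insulin receptor signalling, had an FPKM of 1.32 ± 0.126 in shRNA-NC and 9.83 ± 0.407 in shRNA-*Ddx5* cells in medium (SD, n = 3 each). Under cytokines these were 1.10 ± 0.410 and 17.4 ± 0.439. It rose by 2.22 in medium (adjusted p = 3.4e-07) and by 3.16 with cytokines (adjusted p = 4.3e-08) on the log2 scale, and the effects differed by 0.93 (adjusted p = 0.0064). *Irs1*, the insulin receptor substrate that recruits PI3K, rose after knockdown in medium by 0.94 (adjusted p = 2.6e-04) and fell with cytokines in shRNA-*Ddx5* cells by 1.40 (adjusted p = 1.8e-05). Its interaction was -1.03 (adjusted p = 0.0089), the direction seen for *Igfbp4*. The scaffold gene *Gab2* fell after knockdown by 1.14 in medium and by 1.21 with cytokines (adjusted p = 1.4e-05 and 9.0e-06). It passed the filter only through the shRNA-NC groups, where it was high. With no filter the adjusted p-values were 7.6e-05 and 5.0e-05, and with a pseudocount of 0.1 the log2 fold changes were -2.16 and -2.09. Of the other receptors, *Lrp1*, a large endocytic receptor, had a knockdown effect that was higher with cytokines than in medium by 1.39 (adjusted p = 0.0156), the direction seen for *Igfbp3*.

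All 18 listed genes of the PI3K, Akt and mTOR branch were tested, and after knockdown 3 rose and 8 fell in medium (16.7% and 44.4%, against 25.3% and 21.7% of all tested genes) and 3 rose and 7 fell with cytokines (16.7% and 38.9%, against 23.5% and 22.1%). *Pik3ca*, a catalytic subunit of PI3K, went from an FPKM of 13.4 ± 1.12 to 5.19 ± 0.628 in medium (SD, n = 3 each; log2 fold change -1.23, adjusted p = 3.6e-06) and fell by 0.95 with cytokines (adjusted p = 1.8e-05). *Akt1*, the kinase downstream of PI3K, rose after knockdown in medium by 0.75 (adjusted p = 2.7e-04). *Foxo3*, a transcription factor that Akt keeps out of the nucleus, rose with cytokines by 0.96 in shRNA-NC and by 1.53 in shRNA-*Ddx5* cells (adjusted p = 1.6e-06 and 2.5e-08). The difference between these cytokine effects was 0.57 (adjusted p = 0.0047). *Igf2bp2*, which encodes a protein that binds *Igf2* mRNA, fell after knockdown by 1.30 in medium and by 1.20 with cytokines (adjusted p = 5.0e-06 and 8.2e-06). The imprinted transcript *H19* had no fragment in any library, and the acid-labile subunit gene *Igfals* and the binding protein genes outside the 10 had at most 4 fragments in a library.

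**Figure D5:**
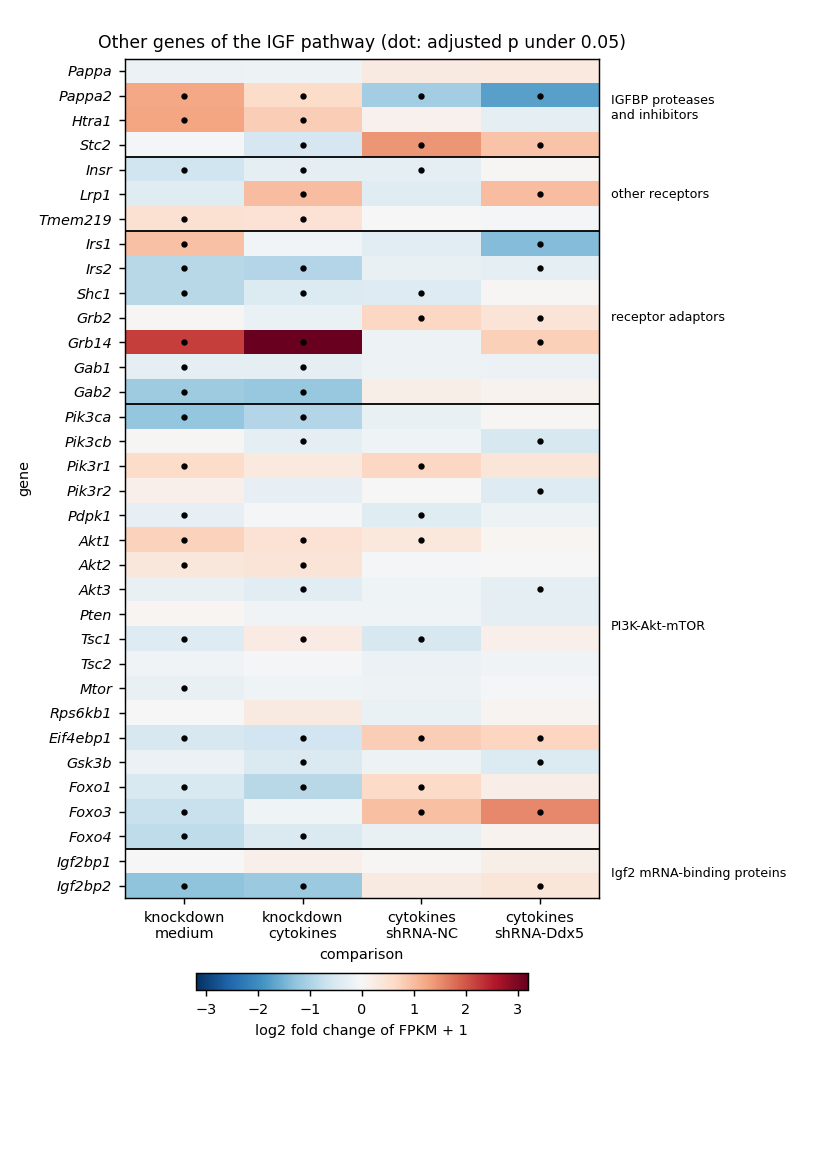
Log2 fold changes of FPKM + 1 (colour) of the 34 tested pathway genes (rows, grouped by list) in 4 comparisons (columns), with a dot where the adjusted p was under 0.05. *Grb14* is the deepest red in both knockdown columns (2.22 and 3.16), and *Pappa2* is red after knockdown and blue with cytokines.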

How the data were processed

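RNA-seq libraries of 12 ATDC5 cultures were grouped by their labels. According to the study's methods and the submitters' processing notes, fragments were aligned with HISAT2 2.0.5, counted with featureCounts and tested with DESeq2 1.20.0 by the authors. They deposited FPKM for 46731 genes, that is, fragments per gene relative to its length and a denominator for each library. The notes name the build mm10, but the coordinates of the table are those of GRCm39. A strand-marking kit is not named. Every nonzero value was a whole number of fragments within 0.05, with denominators of 0.957 to 1.08 times the summed fragments. Floors and fragments cover counting error only.

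Log2(FPKM + 1) of the 12368 genes past the filter was fitted in limma 3.58.1 (R 4.3.3, eBayes with trend, 4 group means, Benjamini-Hochberg adjustment, threshold 0.05), a model tested on simulated data. A fold change on this scale understates the change of low genes. Pathway genes were named by list, with values for those past the threshold with the larger changes. The members, lists and tests were chosen with earlier results of these data known. Alternatives were another pseudocount, no filter or a filter in all 12 libraries, quantile and fragment scaling, a replicate block, only the libraries of a contrast, eBayes without trend, voom on recovered fragments, a fold limit and each library left out. Promoter windows came from RefSeq, exons from GENCODE.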

Additional observations from a re-analysis of the deposited data

Results flagged for a closer look

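For *Igfbp3* the knockdown effect differed between the media. It was 1.65 in medium and 2.96 with cytokines on the log2 scale, a difference of 1.31 (SE 0.15, adjusted p = 4.9e-04, interaction in limma), and it lay between 1.24 and 1.41 when each of the 12 libraries was left out in turn.

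For *Igfbp4* the knockdown effect changed direction between the media, from 0.53 in medium to -0.47 with cytokines, a difference of -1.01 (SE 0.20, adjusted p = 0.011). This difference lay between -1.16 and -0.86 when each library was left out in turn, with an adjusted p of at most 0.0349. *Igfbp4* passed the filter only through shRNA-*Ddx5* in medium and shRNA-NC with cytokines, the groups that set this difference, and in a fit with no filter its adjusted p was 0.0273. The level of *Igfbp4* was between 29 and 114 fragments per library.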

How the results depend on the processing

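Of 718 recomputed values of the 7 tested genes, 687 kept their direction and their side of the threshold or stayed within the spread between replicates. Part of this agreement was fixed in advance. Leaving out a library outside a comparison does not alter its log2 fold change, only its adjusted p. The same holds for another filter, the replicate block, eBayes without trend and fits of only the libraries of a contrast. The count describes these fits and does not measure robustness. A filter of 1 FPKM in all 12 libraries left out *Igfbp4* and *Igfbp7*, so that 3 genes were called for the knockdown in medium, 3 with cytokines and 1 for the interaction. Of the 10019 genes past that filter, 26.6% were called higher and 21.1% lower in medium, 23.4% and 22.5% with cytokines, and 2.55% and 4.25% for the interaction. Counting only calls with a log2 change of 1 or more in size left 2 calls in each knockdown comparison and 2 in each cytokine comparison. Of all 12368 genes this limit left 422 higher and 352 lower for the knockdown in medium, and 450 and 345 with cytokines. For cytokines it left 362 and 133 in shRNA-NC and 462 and 175 in shRNA-*Ddx5* cells. The knockdown value of *Igfbp5* with cytokines moved to 5.04 with a pseudocount of 0.1 and to 5.07 with voom. The interaction of *Igfbp7* turned to -0.18 and -0.44 under the same settings. Its mean FPKM in shRNA-NC and shRNA-*Ddx5* cells was 0.252 and 3.41 in medium, and 1.11 and 9.69 with cytokines. Adding 1 FPKM compresses the change of so low a gene, so the sign of this interaction depended on the scale. Differences that were not called turned sign when 1 library was left out: *Igfbp6* with cytokines after knockdown (-0.034 to 0.27), *Igfbp6* with cytokines in shRNA-*Ddx5* cells (-0.11 to 0.15) and the interaction of *Igf1r* (-0.064 to 0.18).

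The correlations were mixed on whether the replicate numbers pair the libraries. Same-numbered libraries correlated in their deviations from the group means by 0.448, 0.0425 and 0.313 for the knockdown in medium, and by -0.0201, 0.121 and -0.0855 with cytokines. Differently numbered libraries ran from -0.378 to 0.19 and from -0.109 to 0.127 in these 2 comparisons. For the cytokine effect, same-numbered libraries gave -0.368, 0.123 and -0.290 in shRNA-NC and -0.013, -0.292 and 0.043 in shRNA-*Ddx5* cells. In a fit that took the numbers as a replicate block, 5, 5, 5, 4 and 2 genes were called, against 5, 5, 6, 4 and 2 without it, and the gene lost was *Igf2r* with cytokines in shRNA-NC cells (adjusted p = 0.065). The block ended no other call of the 10 genes or the named pathway genes. Over all 12368 genes the calls were 5452, 5232, 3769, 2902 and 687 with the block, against 5817, 5645, 4181, 3344 and 1016 without it. Fits of only the libraries of a contrast could not be made for the interaction, which uses all 12. Depth limits *Igfbp2*, *Igf1* and *Igf2*, which stayed at or below 37 fragments.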
